A study of Mus musculus with 12 samples.

Results

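Adenosine and purinergic signalling in bone marrow-derived macrophages (BMDMs) was described through 10 genes of the 43453 in a table of raw read counts: Adora2a, Adora2b, Adora3, Entpd1, Nt5e, Ada, P2rx4, P2rx7, P2ry2 and P2ry6. They were found by symbol, and each gene was represented by the transcript with the highest total count over all libraries. The table holds 12 RNA-seq libraries, 3 in each of 4 groups: LPS- and LPS+ cultures of the genotype tlr4f/f, and the same pair of cultures of the genotype tlr4f/f-lysM-cre. All came from C57BL/6 mice whose Tlr4 gene, the receptor for bacterial lipopolysaccharide (LPS), is floxed, and the tlr4f/f-lysM-cre mice also carry a Cre recombinase driven by lysM, a promoter active in neutrophils as well as macrophages. Marrow cells were grown with M-CSF at 50 ng/mL for 7 days, and in the LPS+ groups LPS was then added at 1 µg/mL and left on the cells for 6 h. The labels number the libraries of a group without saying that they came from separate mice, so p-values measure the spread between these samples, which may be technical.

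The counts of 3 genes went against the headings of 2 groups. Tlr4 lay between 77.0 and 146 CPM (counts scaled to library size) under LPS- tlr4f/f and between 94.7 and 117 CPM under LPS- tlr4f/f-lysM-cre, but between 24.5 and 31.2 CPM under LPS+ tlr4f/f and between 24.4 and 27.4 CPM under LPS+ tlr4f/f-lysM-cre. Lyz2, the gene that carries the lysM promoter, was at least 5953 CPM in the 6 libraries headed LPS- and at most 75.3 CPM in the 6 headed LPS+. Il1b, a cytokine gene induced by LPS, lay between 1633 and 8224 CPM under LPS- tlr4f/f-lysM-cre and between 2.69 and 3.61 CPM under LPS+ tlr4f/f. If these 2 headings were exchanged, Tlr4 and Lyz2 would separate the genotypes and Il1b would separate LPS from no LPS without overlap. Differences therefore have 2 readings: as headed, and exchanged, where LPS- tlr4f/f-lysM-cre is read as LPS+ tlr4f/f and the reverse. The same libraries enter a comparison in both readings, so its values do not change, only its name. LPS- tlr4f/f-lysM-cre against LPS- tlr4f/f, a genotype comparison as headed, becomes the effect of LPS in tlr4f/f when exchanged. LPS+ tlr4f/f-lysM-cre against LPS+ tlr4f/f becomes the effect of LPS in tlr4f/f-lysM-cre. LPS+ against LPS- within tlr4f/f becomes the genotype comparison without LPS, and LPS+ against LPS- within tlr4f/f-lysM-cre becomes the genotype comparison with LPS.

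With 1 transcript per gene the libraries held between 33577440 and 56445989 counts. Pearson's r of log2 CPM within a group was between 0.989 and 0.991 for the 6 libraries headed LPS+ and between 0.928 and 0.964 for the 6 headed LPS-. All 9 macrophage markers on the list were detected in every library, with a summed level between 5007 and 7952 CPM in the 6 libraries headed tlr4f/f and between 8485 and 14719 CPM in the 6 headed tlr4f/f-lysM-cre. The 5 dendritic cell markers, of which 0 to 2 were at 0 in a library, summed to at most 0.772 CPM in the former and to between 2.88 and 13.1 CPM in the latter, so both sums separated these libraries as Adora2a did, and their part in the results was not tested. None of 6 stromal markers (Col1a1, Col1a2, Col3a1, Dcn, Pdgfra and Pdgfrb) was at 0 in any library, and their summed level was 669 CPM in LPS- tlr4f/f replicate 1, 981 and 1509 CPM in LPS- tlr4f/f-lysM-cre replicates 1 and 3, 188 CPM in replicate 2 of that group, and at most 61.7 CPM in the other 8 libraries. The 8 neutrophil markers summed to 192 CPM in LPS- tlr4f/f-lysM-cre replicate 3 and to at most 27.9 CPM elsewhere, with between 0 and 3 of them at 0 in a library. In bulk RNA, fewer cells of a type and less RNA per cell cannot be told apart.

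Extracellular ATP, released by stressed or dying cells, opens P2X ion channels and activates P2Y receptors, which couple to G proteins. Ecto-enzymes on the cell surface then remove the phosphates: Entpd1 (CD39) turns ATP and ADP into AMP, and Nt5e (CD73) turns AMP into adenosine. Adenosine is sensed by its own receptors, of which those encoded by Adora2a and Adora2b raise cAMP and restrain inflammatory cytokines in macrophages, whereas that of Adora3 lowers cAMP, and adenosine is removed by adenosine deaminase, the product of Ada.

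In the comparison of LPS- tlr4f/f-lysM-cre with LPS- tlr4f/f, all 10 members could be tested, and 3 of them, Adora2a, Adora2b and P2ry2, passed a fold change above 2 with an adjusted p below 0.01, all higher. Of all 14649 genes tested, 17.1% passed in either direction and 9.26% were higher. Without the 3 libraries highest in stromal markers, which leaves 2 libraries against 1, the log2 fold changes of these members were 7.90, 4.64 and 2.56, and 0 of 15838 genes passed by edgeR, so that fit could not show whether the calls hold (4100 genes had an unadjusted p below 0.05). In LPS+ tlr4f/f-lysM-cre against LPS+ tlr4f/f, Adora2a and Adora2b were higher and Entpd1 lower by the same criteria among 9 members tested, where 21.8% of 14551 genes passed, 10.8% higher and 10.9% lower. At an adjusted p below 0.05 alone, Ada, P2rx4, P2rx7 and P2ry2 passed too in this comparison, so that 7 of 9 members stood beside 61.4% of all genes. These 2 comparisons share no library. Of the 9 members tested in LPS+ against LPS- within tlr4f/f-lysM-cre, Adora2a, Adora2b and P2ry2 were lower, where 6.09% of 14245 genes passed and 3.66% were lower. Adora2a alone passed in LPS+ tlr4f/f-lysM-cre against LPS- tlr4f/f, the pair whose headings are not in doubt, where 13.4% of 14595 genes passed and 6.93% were higher. No member passed in LPS+ against LPS- within tlr4f/f, and 0 of 14712 genes (0%) passed by edgeR. In that comparison 3626 genes and 1 member, Ada, had an unadjusted p below 0.05, and DESeq2 called 467 genes and limma voom 26, none of them a member.

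**Figure D1:**
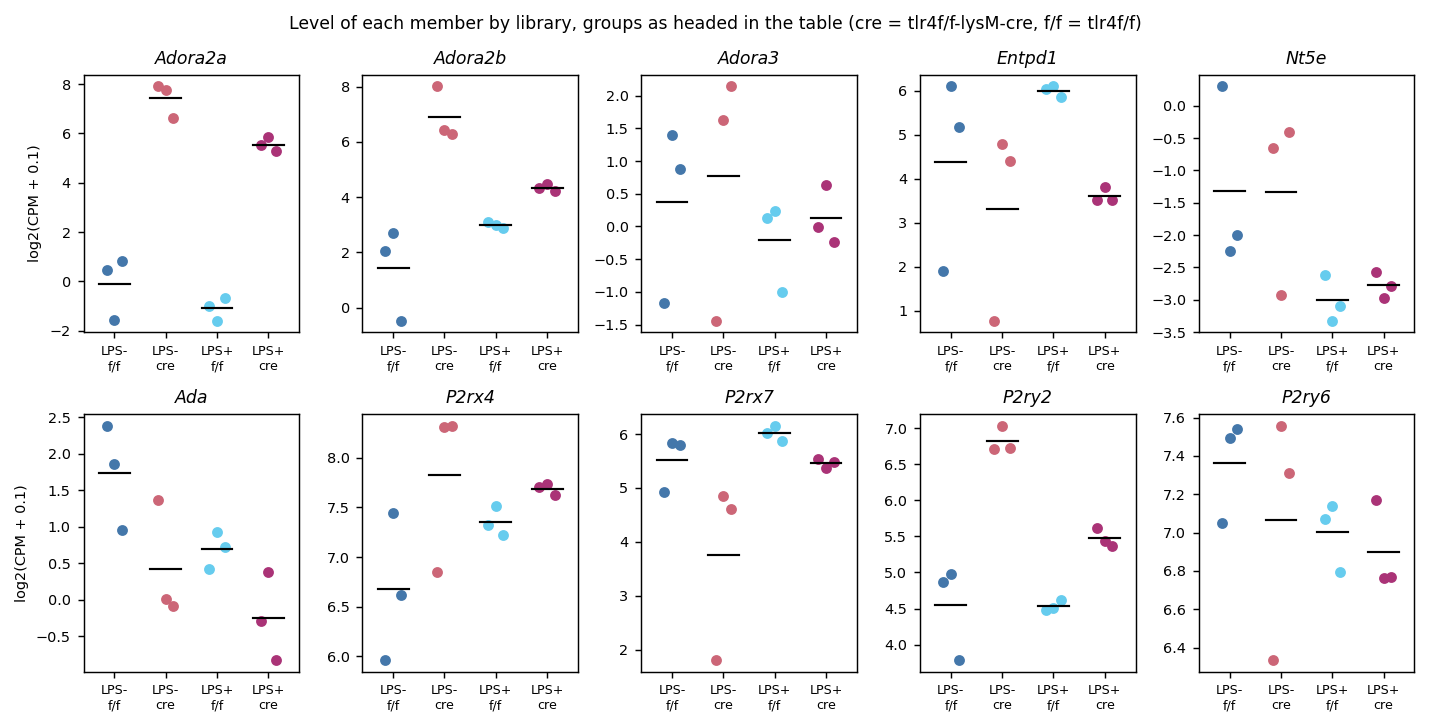
Level of the 10 members in each of the 12 libraries, as log2 of CPM plus 0.1, with 3 points for each group as headed and a line at their mean. Adora2a and Adora2b sit apart in the groups headed tlr4f/f-lysM-cre. Entpd1, Nt5e and Adora3 spread at least 7.39-fold from lowest to highest CPM in both groups headed LPS-. Adora2a and Adora2b spread 6.98-fold and 10.3-fold in LPS- tlr4f/f. P2rx7 spread 8.49-fold in LPS- tlr4f/f-lysM-cre but 1.89-fold in LPS- tlr4f/f.

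Adora2a (chr10:75316877-75334792, GRCm38.p6) showed the widest separation among the members. Its level was 1.27, 0.239 and 1.67 CPM in LPS- tlr4f/f, 0.400, 0.232 and 0.520 CPM in LPS+ tlr4f/f, 45.8, 57.3 and 38.6 CPM in LPS+ tlr4f/f-lysM-cre, and 241, 219.8 and 99.6 CPM in LPS- tlr4f/f-lysM-cre. The 6 libraries headed tlr4f/f-lysM-cre were all above the 6 headed tlr4f/f, and among the former those headed LPS- did not overlap those headed LPS+. As headed, Adora2a was higher in tlr4f/f-lysM-cre by a log2 fold change of 7.46 (SE 0.83, edgeR adjusted p = 0.00158) without LPS and of 6.88 (SE 0.25, edgeR adjusted p = 1.18e-07) with LPS. In the exchanged reading these values are the rise with LPS, first in tlr4f/f and then in the Cre-carrying cells. LPS+ tlr4f/f-lysM-cre stood above LPS- tlr4f/f by 5.49 (SE 0.67, edgeR adjusted p = 0.00205) in both readings, a call that ended on omission of any 1 of the former libraries (adjusted p up to 0.0132). Within tlr4f/f-lysM-cre as headed, Adora2a fell by 1.97 on the log2 scale with LPS (SE 0.34, edgeR adjusted p = 0.00927), a fall read in the exchange as lower with LPS in tlr4f/f-lysM-cre than in tlr4f/f. That call ended in several alternatives, among them the omission of LPS- tlr4f/f-lysM-cre replicate 1 or 2 or of any LPS+ library, with adjusted p-values up to 0.0554 and log2 fold changes between -2.29 and -1.76.

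Adora2b (chr11:62248984-62266452), whose receptor has a lower affinity for adenosine than that of Adora2a, was also highest in LPS- tlr4f/f-lysM-cre and next in LPS+ tlr4f/f-lysM-cre, while the groups headed tlr4f/f stood in the opposite order to Adora2a. Its level was 4.08, 6.34 and 0.619 CPM in LPS- tlr4f/f, 8.40, 7.81 and 7.27 CPM in LPS+ tlr4f/f, 20.3, 21.9 and 18.6 CPM in LPS+ tlr4f/f-lysM-cre, and 259, 86.0 and 78.1 CPM in LPS- tlr4f/f-lysM-cre. No pair of neighbouring groups in this order overlapped. Replicate 1 of LPS- tlr4f/f-lysM-cre, a library high in stromal markers, held the highest level, and the lowest lay in LPS- tlr4f/f replicate 3. The log2 fold change was 5.25 (SE 0.98, edgeR adjusted p = 0.00839) in LPS- tlr4f/f-lysM-cre against LPS- tlr4f/f and 1.38 (SE 0.10, edgeR adjusted p = 7.79e-08) in LPS+ tlr4f/f-lysM-cre against LPS+ tlr4f/f. With LPS in tlr4f/f-lysM-cre as headed, Adora2b fell by 2.79 on the log2 scale (SE 0.49, edgeR adjusted p = 0.00989), which in the exchange is a lower level with LPS in tlr4f/f-lysM-cre than in tlr4f/f. The call in the first of these comparisons ended when any library but LPS- tlr4f/f replicate 3 was left out (adjusted p up to 0.0294), and that in the last on omission of any 1 LPS+ library (adjusted p up to 0.0582). The call at 1.38 ended when all 12 libraries shared a single fit (adjusted p = 0.135).

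Adora2b was the 1 member whose interaction of genotype and LPS had an adjusted p below 0.05. The contrast asks whether the change with LPS differs between genotypes, and it has the same value in both readings because both doubted groups enter it with the same sign. It was -3.88 on the log2 scale (SE 0.92, edgeR adjusted p = 0.0340), where 6.99% of 15792 genes passed that threshold and 2.86% did so with a value below 0, and no member met the stricter criteria, which 0.994% of genes met. As headed, Adora2b was higher in every LPS+ than in every LPS- library of tlr4f/f and lower in every LPS+ than in every LPS- library of tlr4f/f-lysM-cre. In the exchanged reading it was higher with LPS in all libraries of both genotypes, by 5.25 on the log2 scale in tlr4f/f and by 1.38 in the other genotype. Without the 3 libraries highest in stromal markers the interaction was -3.22 with an adjusted p of 0.123, and over single libraries left out the adjusted p ranged from 0.0155 to 0.0992 by edgeR. P2ry2 had the next interaction, -1.26 (SE 0.35, edgeR adjusted p = 0.0560).

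Adora3 (chr3:105904421-105908928) was low, between 10 and 159 counts or 0.268 to 4.32 CPM in all libraries. Its level was 0.343, 2.53 and 1.74 CPM in LPS- tlr4f/f, 0.268, 2.99 and 4.32 CPM in LPS- tlr4f/f-lysM-cre, 0.989, 1.08 and 0.399 CPM in LPS+ tlr4f/f, and 0.898, 1.45 and 0.752 CPM in LPS+ tlr4f/f-lysM-cre. All 4 groups overlapped, and replicate 1 was the lowest library in both groups headed LPS-. Its exons share 779 of 3729 bases with those of Tmigd3 on the same strand (GENCODE M21), so reads of these genes may not be separable. No edgeR test of Adora3 passed in the main fits, with adjusted p-values from 0.309 to 0.883. With single libraries left out, the lowest edgeR adjusted p in LPS+ against LPS- within tlr4f/f-lysM-cre was 0.0202.

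Entpd1 (chr19:40612366-40741602) encodes the enzyme that starts the breakdown of extracellular ATP. Its level was 3.62, 68.3 and 36.0 CPM in LPS- tlr4f/f, 1.61, 27.5 and 21.0 CPM in LPS- tlr4f/f-lysM-cre, 65.9, 68.5 and 58.1 CPM in LPS+ tlr4f/f, and 11.3, 14 and 11.3 CPM in LPS+ tlr4f/f-lysM-cre. The groups headed LPS+ lay well apart, whereas those headed LPS- overlapped each other and LPS+ tlr4f/f-lysM-cre, and their replicates 1 held the lowest values of all. In LPS+ tlr4f/f-lysM-cre against LPS+ tlr4f/f, Entpd1 fell by 2.39 on the log2 scale (SE 0.10, edgeR adjusted p = 2.10e-09), which in the exchange is a fall with LPS in tlr4f/f-lysM-cre. With all 12 libraries in a single fit this call ended (adjusted p = 0.0872). In the parallel pair of groups headed LPS- the difference was -1.12 (SE 1.2, edgeR adjusted p = 0.491), and the interaction was -1.29 (SE 1.31, edgeR adjusted p = 0.607). In LPS+ against LPS- within tlr4f/f-lysM-cre the difference was -0.44 (SE 0.81, edgeR adjusted p = 0.721), and limma voom gave it the other sign, at 0.60. Without the 3 libraries highest in stromal markers it was -1.18 (edgeR adjusted p = 6.99e-05), but only replicate 2 of LPS- tlr4f/f-lysM-cre is then left, and that p assumes that the lone library varies like the LPS+ group.

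Nt5e (chr9:88327609-88372089), the enzyme that forms adenosine at the cell surface, was close to the detection limit. It had 66, 7 and 8 counts in LPS- tlr4f/f, 20, 1 and 21 counts in LPS- tlr4f/f-lysM-cre, 3, 0 and 1 counts in LPS+ tlr4f/f, and 3, 1 and 2 counts in LPS+ tlr4f/f-lysM-cre. The 3 libraries with the most counts were the same 3 that were highest in stromal markers, and across the 12 libraries Pearson's r between the log2 level of Nt5e and that of the stromal sum was 0.79, a description over libraries that also share a group (Spearman's rho 0.61). Other members moved with the stromal sum too. Pearson's r was 0.77 for P2ry2 (rho 0.79), 0.69 for Adora2b (rho 0.57) and 0.57 for Adora2a (rho 0.59). It was -0.75 for P2rx7 (rho -0.81) and -0.67 for Entpd1 (rho -0.56). It lay between -0.20 and 0.17 for Adora3, Ada, P2rx4 and P2ry6. The part of these markers in the members' levels was not tested. Among comparisons of 2 groups, Nt5e passed the filter on low counts only in the pair headed LPS-, where the log2 fold change was -0.18 (SE 1.22, edgeR adjusted p = 0.918). It also passed in the fit of all 12 libraries, where the interaction was 0.92 (SE 1.80, edgeR adjusted p = 0.806), a fitted value that rests on at most 3 counts in each library headed LPS+ and is no bound. No fold of Nt5e between LPS+ and LPS- is given.

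**Figure D2:**
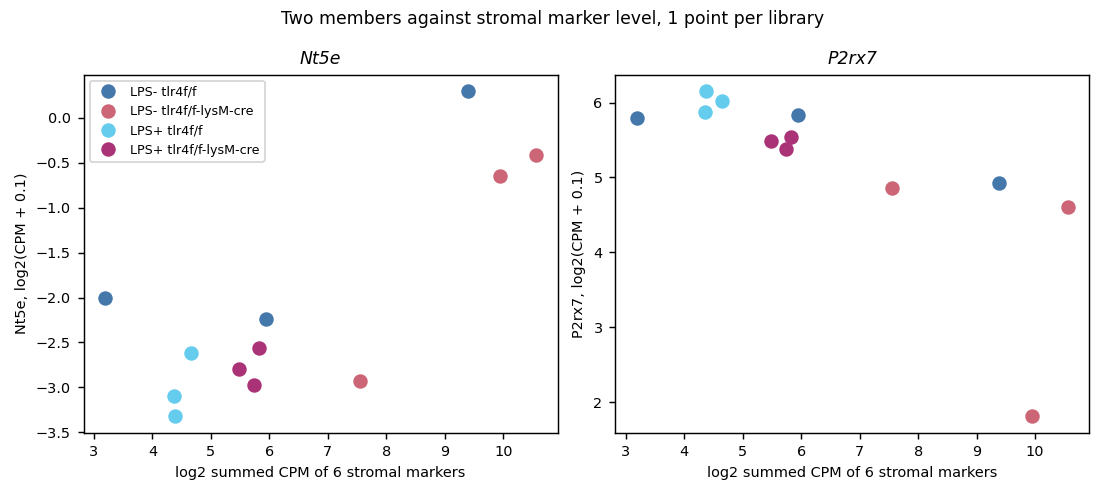
Levels of Nt5e (left) and P2rx7 (right), as log2 of CPM plus 0.1, against the log2 summed CPM of 6 stromal markers, 1 point per library and coloured by group as headed. The 3 libraries at the right of each panel, LPS- tlr4f/f replicate 1 and LPS- tlr4f/f-lysM-cre replicates 1 and 3, hold the highest Nt5e and 3 of the 4 lowest values of P2rx7.

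Ada (chr2:163726571-163750239), which turns adenosine into inosine, lay between 0.465 and 5.13 CPM. Its level was 5.13, 3.54 and 1.84 CPM in LPS- tlr4f/f, 1.24, 1.80 and 1.54 CPM in LPS+ tlr4f/f, 2.47, 0.903 and 0.840 CPM in LPS- tlr4f/f-lysM-cre, and 0.714, 1.21 and 0.465 CPM in LPS+ tlr4f/f-lysM-cre. Only LPS- tlr4f/f stood clear of its neighbour in this order of group means. In the main fits Ada did not meet the stricter criteria in any comparison. At an adjusted p below 0.05 it was lower in LPS+ tlr4f/f-lysM-cre than in LPS+ tlr4f/f, by -0.95 (SE 0.34, edgeR adjusted p = 0.0282), and than in LPS- tlr4f/f, by -2.14 (SE 0.52, edgeR adjusted p = 0.0198), where 40.7% of all genes passed. The direction was the same, at -1.32 (SE 0.60, edgeR adjusted p = 0.130), in LPS- tlr4f/f-lysM-cre against LPS- tlr4f/f. Exchanged, -0.95 is the change with LPS in tlr4f/f-lysM-cre and -1.32 that in the other genotype, while -2.14 keeps its name.

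P2rx7 (chr5:122643927-122692336) encodes the ATP-gated channel that triggers the inflammasome in macrophages, and P2rx4 (chr5:122707518-122729739) encodes a channel that opens at lower ATP. The genes lie 15181 bases apart. P2rx7 was 30.2, 57.1 and 55.2 CPM in LPS- tlr4f/f, 3.41, 28.9 and 24.2 CPM in LPS- tlr4f/f-lysM-cre, 64.8, 71.3 and 58.6 CPM in LPS+ tlr4f/f, and 46.4, 41.4 and 44.6 CPM in LPS+ tlr4f/f-lysM-cre. Each group headed tlr4f/f-lysM-cre lay below the group headed tlr4f/f of the same treatment without overlap, and replicate 1 was lowest in both groups headed LPS-. In LPS+ tlr4f/f-lysM-cre against LPS+ tlr4f/f the difference was -0.54 (SE 0.07, edgeR adjusted p = 3.58e-05), under the fold change of 2. In the groups headed LPS- it was -1.34 (SE 0.72, edgeR adjusted p = 0.186). Exchanged, these are changes with LPS, the former in tlr4f/f-lysM-cre and the latter in its control genotype. The other 4 transcripts of P2rx7 in the table held between 10.6% and 92.2% of the counts of the one used, with reads counted for more than 1 transcript.

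P2rx4 was 62.3, 174 and 98.0 CPM in LPS- tlr4f/f, 116, 317 and 320.1 CPM in LPS- tlr4f/f-lysM-cre, 159.7, 182 and 149 CPM in LPS+ tlr4f/f, and 208, 212 and 197 CPM in LPS+ tlr4f/f-lysM-cre. The groups headed LPS+ did not overlap and those headed LPS- did. The log2 fold change between genotypes as headed was 0.34 (SE 0.07, edgeR adjusted p = 0.00103) with LPS and 1.16 (SE 0.51, edgeR adjusted p = 0.122) without. In the exchange these are the changes with LPS in either genotype. Replicate 1 was the lowest library of P2rx4 in both groups headed LPS-, as it was for P2rx7.

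P2ry2 (chr7:100996568-101012053) encodes a receptor for ATP and UTP that helps phagocytes find dying cells, and P2ry6 (chr7:100937630-100975498), a receptor for UDP that promotes phagocytosis, lies 21069 bases away. P2ry2 was 29.1, 31.6 and 13.7 CPM in LPS- tlr4f/f, 22.2, 22.7 and 24.6 CPM in LPS+ tlr4f/f, 48.9, 43.3 and 41.1 CPM in LPS+ tlr4f/f-lysM-cre, and 104, 131 and 105 CPM in LPS- tlr4f/f-lysM-cre. The groups headed tlr4f/f overlapped each other, and both groups headed tlr4f/f-lysM-cre lay above them and apart from each other. P2ry2 was higher in tlr4f/f-lysM-cre as headed by 2.18 (SE 0.33, edgeR adjusted p = 0.00392) without LPS and by 0.95 (SE 0.07, edgeR adjusted p = 2.63e-07) with LPS, the latter a fold of 1.93 and so just under the fold criterion. In the exchange, the first value is a rise with LPS in tlr4f/f, and 0.95 is the change with LPS in the Cre-carrying cells. With LPS in tlr4f/f-lysM-cre as headed it fell by 1.34 on the log2 scale (SE 0.13, edgeR adjusted p = 0.00160), read in the exchange as lower in tlr4f/f-lysM-cre than in tlr4f/f with LPS. On omission of any 1 LPS+ library this last call ended, with an adjusted p up to 0.0211, and the call at 2.18 ended on omission of any library but LPS- tlr4f/f replicate 3, with an adjusted p up to 0.0153.

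P2ry6 was 132, 180.4 and 186 CPM in LPS- tlr4f/f, 80.7, 188 and 159 CPM in LPS- tlr4f/f-lysM-cre, 134, 141 and 111 CPM in LPS+ tlr4f/f, and 144, 109 and 109 CPM in LPS+ tlr4f/f-lysM-cre. Neighbouring groups overlapped throughout, and the group means ranged from 120.5 to 166 CPM. No edgeR test of P2ry6 passed in the main fits, with adjusted p-values from 0.0829 to 0.876.

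**Figure D3:**
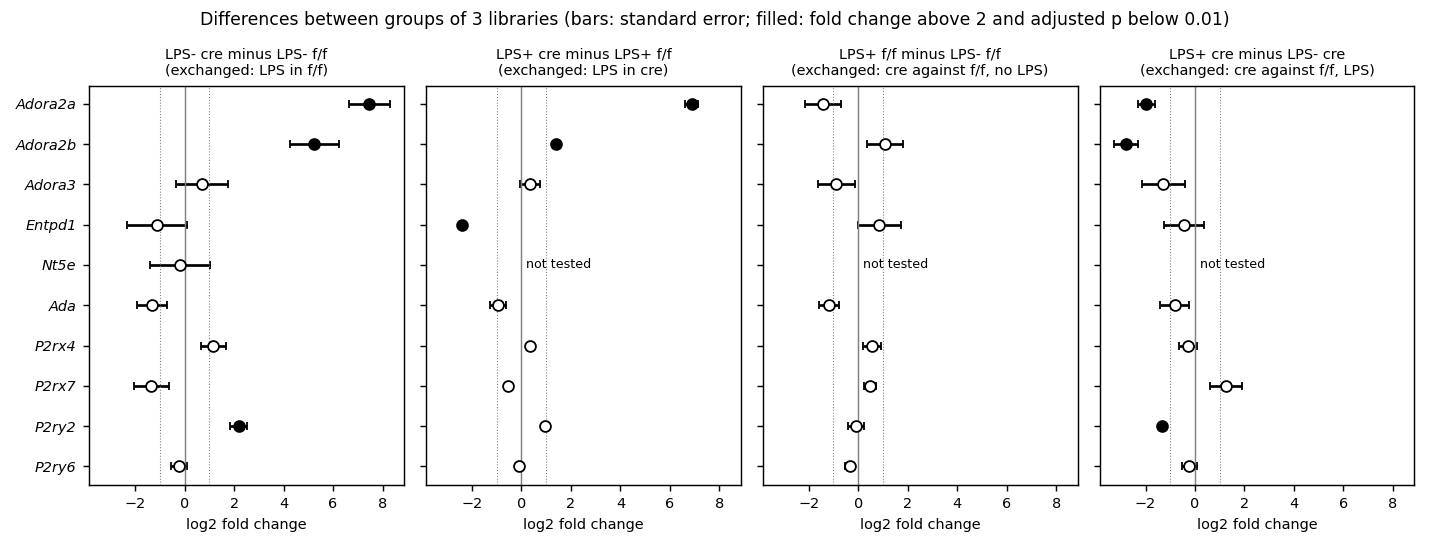
Log2 fold change of each member in 4 comparisons of 3 against 3 libraries, with bars for the standard error and filled points where the fold change was above 2 and the adjusted p below 0.01. Adora2a lies far to the right in both panels on the left, at 7.46 and 6.88, and Adora2b only in the first, at 5.25 against 1.38, and the error bars are widest where a group headed LPS- takes part.

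Counts of members whose groups did not overlap were near the share of all genes. They were 4 of 10 in LPS- tlr4f/f-lysM-cre against LPS- tlr4f/f (54.1% of all genes) and 7 of 9 in LPS+ tlr4f/f-lysM-cre against LPS+ tlr4f/f (67.5%). In LPS+ against LPS- they were 4 of 9 within tlr4f/f-lysM-cre (48%) and 3 of 9 within tlr4f/f (35.3%), and in LPS+ tlr4f/f-lysM-cre against LPS- tlr4f/f 5 of 9 (57.9%).

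Levels between genes were compared as CPM per kilobase of transcript. In LPS- tlr4f/f, P2ry6 had the highest mean level of the members (86.7 ± 15.4, SD, n = 3), followed by P2rx4 (41.3 ± 21.2), P2rx7 (9.62 ± 3.04), Entpd1 (8.53 ± 7.67) and P2ry2 (8.24 ± 3.22). Adora2b (2.00 ± 1.56), Adora3 (0.649 ± 0.468) and Adora2a (0.407 ± 0.283) were low there. In LPS- tlr4f/f-lysM-cre, read in the exchange as LPS+ tlr4f/f, Adora2a (71.8 ± 29.3) and Adora2b (76.5 ± 55.5) reached the range of P2ry6 (74.4 ± 29.0) and P2rx4 (92.9 ± 43.4), and P2ry2 stood at 37.8 ± 5.03. In LPS+ tlr4f/f-lysM-cre the level of Adora2a was 18.1 ± 3.62 and that of Adora2b 11 ± 0.891. Nt5e was the lowest member in every group, with means between 0.00749 and 0.130.

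The balance within each pair of related members was taken as the log2 ratio per transcript length in each library. Adora2a over Adora2b was -4.85, -5.50 and -4.28 in LPS+ tlr4f/f and 0.68, 0.89 and 0.55 in LPS+ tlr4f/f-lysM-cre. It was -0.60, 0.86 and -0.15 in LPS- tlr4f/f-lysM-cre, so that the receptors were at similar levels there, and it spread from -5.18 to 0.92 in LPS- tlr4f/f, where both were low. P2rx7 over P2rx4 was between -2.48 and -1.70 in LPS- tlr4f/f, between -2.22 and -2.17 in LPS+ tlr4f/f, between -3.23 and -3.01 in LPS+ tlr4f/f-lysM-cre and between -5.95 and -4.32 in LPS- tlr4f/f-lysM-cre. The ratio of these neighbouring genes thus separated the groups headed tlr4f/f-lysM-cre from both others without overlap, although only P2rx7 and P2rx4 in the groups headed LPS+ had passed an adjusted p below 0.05. P2ry6 over P2ry2 ranged from 2.83 to 4.41 over the 6 libraries headed tlr4f/f, from 1.98 to 2.21 in LPS+ tlr4f/f-lysM-cre and from 0.28 to 1.24 in LPS- tlr4f/f-lysM-cre. Entpd1 over Nt5e was above 0 in all 12 libraries, from 1.32 to 12.14, and lowest in the replicates 1 of both groups headed LPS-. These ratios are given as a description with no test.

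**Figure D4:**
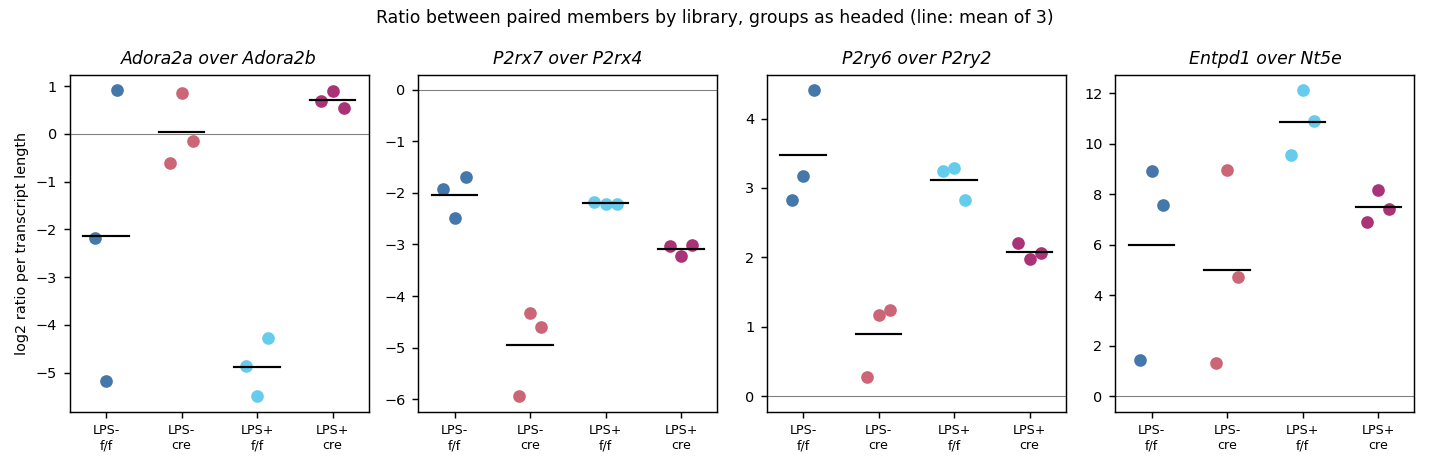
Log2 ratio per transcript length of 4 pairs of members in each library, with 3 points for each group as headed and a line at their mean. P2rx7 over P2rx4 and P2ry6 over P2ry2 are lowest in LPS- tlr4f/f-lysM-cre and intermediate in LPS+ tlr4f/f-lysM-cre, and the mean of Adora2a over Adora2b is lowest in LPS+ tlr4f/f.

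The other genes of the pathway were taken as a list of 60, of which 43 or 44 could be tested in a comparison. In LPS- tlr4f/f-lysM-cre against LPS- tlr4f/f, 6 of 44 were called higher and 8 lower, where 9.26% of all genes were higher and 7.81% lower. Between the groups headed LPS+, tlr4f/f-lysM-cre had 11 of 43 higher and 5 lower, where 10.8% and 10.9% of all genes were. The median log2 fold change of the list was -0.11 in the former, where that of all genes tested was -0.08, and -0.04 in the latter, where that of all genes was -0.02. Of 43 genes tested in both, 8 were called in both, each in the same direction. The matching share of all genes was not computed, so this count is not a result about the list. LPS+ against LPS- gave 2 higher and 6 lower of 43 within tlr4f/f-lysM-cre, beside 2.42% and 3.66% of all genes, and 0 of 43 within tlr4f/f. There were 6 higher and 6 lower of 44 in LPS+ tlr4f/f-lysM-cre against LPS- tlr4f/f, beside 6.93% and 6.45% of all genes. Differences of these genes are named as headed. Exchanged, a difference in the groups headed LPS- is the change with LPS in tlr4f/f, one in the groups headed LPS+ is the change with LPS in tlr4f/f-lysM-cre, and one with LPS in tlr4f/f-lysM-cre is the genotype difference with LPS.

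Among the 12 genes that carry the signal of the adenosine receptors to and from cAMP, Pde4b, a phosphodiesterase that degrades cAMP, was higher by 5.56 (SE 0.36, edgeR adjusted p = 0.000467) in the groups headed LPS- and by 4.65 (SE 0.08, edgeR adjusted p = 8.06e-13) in those headed LPS+. Its level was 7.13 ± 2.92 CPM in LPS- tlr4f/f and 6.31 ± 0.501 CPM in LPS+ tlr4f/f, against 339 ± 43.2 CPM in LPS- tlr4f/f-lysM-cre and 158 ± 12.1 CPM in LPS+ tlr4f/f-lysM-cre (SD, n = 3 each). Adcy9, an adenylyl cyclase that makes cAMP, moved the other way, at -2.99 (SE 0.23, edgeR adjusted p = 0.000641) and -1.26 (SE 0.09, edgeR adjusted p = 1.36e-07). Its interaction was 1.72 (SE 0.25, edgeR adjusted p = 0.00514), and that of Ampd2, an AMP deaminase, was 1.02 (SE 0.17, edgeR adjusted p = 0.00843). These were the 2 genes called for the interaction of 44 on the list that were tested, beside 0.994% of all genes. Adcy9 was higher by 1.48 in LPS+ than in LPS- within tlr4f/f-lysM-cre, and Pde4b lower by -1.09.

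Among the 11 enzymes acting on adenosine and AMP inside the cell, Nt5c1a is a cytosolic nucleotidase that forms adenosine from AMP. It had 1 to 4 counts in each library headed tlr4f/f, 95 to 326 counts in LPS- tlr4f/f-lysM-cre and 34 to 94 counts in LPS+ tlr4f/f-lysM-cre. Nt5c1a passed the filter on low counts only in fits that include a group headed tlr4f/f-lysM-cre. That it was called higher in both groups thus adds nothing to these counts. Adal was lower by -1.65 (SE 0.28, edgeR adjusted p = 0.00540) in the groups headed LPS- and higher by 1.36 with LPS in tlr4f/f-lysM-cre as headed. Pnp, which splits inosine and guanosine, was higher by 3.40 (SE 0.32, edgeR adjusted p = 0.000898) in the groups headed LPS-. In those headed LPS+ it was higher by 3.01 (SE 0.08, edgeR adjusted p = 3.11e-11). It was lower by -1.01 with LPS in tlr4f/f-lysM-cre as headed, where its means were 861 ± 54.2 CPM with LPS and 1757 ± 289 CPM without. The means in tlr4f/f as headed were 108 ± 10.7 CPM with LPS and 165 ± 48.4 CPM without. Of the 11 transporters and ATP release channels, Slc28a2, a concentrative nucleoside carrier, was higher by 5.33 (SE 0.99, edgeR adjusted p = 0.00814) and 2.82 (SE 0.10, edgeR adjusted p = 3.16e-09), and fell by 3.26 on the log2 scale with LPS in tlr4f/f-lysM-cre as headed. Slc17a9, which loads ATP into vesicles, was lower by -1.90 (SE 0.30, edgeR adjusted p = 0.00421) in the groups headed LPS-, and Slc29a2, an equilibrative nucleoside carrier, by -1.23 (SE 0.26, edgeR adjusted p = 0.00129) in those headed LPS+.

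The sublist of other ecto-enzymes held 14 genes, and whether all their products act at the cell surface was not checked. Among them Enpp4 was higher by 4.12 (SE 0.71, edgeR adjusted p = 0.00621) in the groups headed LPS-. It was higher by 4.31 (SE 0.15, edgeR adjusted p = 1.43e-10) in those headed LPS+, and fell by 2.90 with LPS in tlr4f/f-lysM-cre as headed. Cd38, which consumes NAD at the cell surface, was called only in the groups headed LPS+, at 6.03 (SE 0.55, edgeR adjusted p = 0.000521), and its log2 fold change in the groups headed LPS- was 6.55 (SE 1.67, edgeR adjusted p = 0.0241). Entpd6 was lower by -2.05 (SE 0.34, edgeR adjusted p = 0.00496) in the latter and Enpp1, which makes AMP from ATP, by -1.17 (SE 0.18, edgeR adjusted p = 0.000132) in the former. Of the 12 other receptors, P2ry1, a receptor for ADP, was lower by -3.05 (SE 0.14, edgeR adjusted p = 2.35e-09) and P2ry14, a receptor for UDP-sugars, higher by 1.26 (SE 0.17, edgeR adjusted p = 3.66e-05) in the groups headed LPS+. P2ry13, also a receptor for ADP, was lower by -2.41 (SE 0.33, edgeR adjusted p = 0.00482) in LPS+ against LPS- within tlr4f/f-lysM-cre. P2rx6 had 13 to 55 counts in LPS- tlr4f/f and 0 or 1 in LPS+ tlr4f/f-lysM-cre. Adora1, the remaining adenosine receptor, had at most 2 counts in any library.

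**Figure D5:**
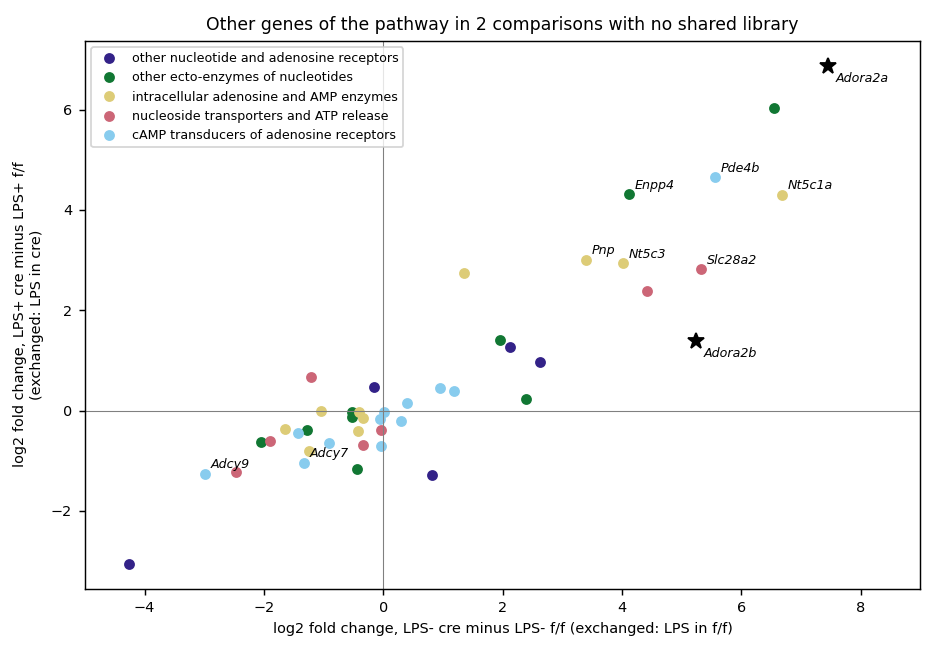
Log2 fold change of 43 other pathway genes in 2 comparisons that share no library, coloured by their sublist, with names on the genes called in both and stars for Adora2a and Adora2b. Of these 43 genes, 38 had the same sign in both, a count whose share over all genes was not computed. Pde4b, Nt5c1a and Enpp4 lie nearest to Adora2a among the named ones. The fold changes of Nt5c1a rest on 1 to 4 counts in each library headed tlr4f/f.

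For each member, the gene with the most similar level over the 12 libraries was sought by Pearson's r of log2 CPM among genes with a mean of at least 10 CPM. It was Nfkbie, an inhibitor of NF-kB, for Adora2a (r = 0.99), Zc3h11a for Adora2b (0.97), C1qa, a complement gene that macrophages express, for Adora3 (0.94), Il7r for Entpd1 (0.95) and Qsox1 for Nt5e (0.87). It was Phactr4 for Ada (0.94), Cep57 for P2rx7 (0.97), Cox17 for P2ry2 (0.99) and Klhl22 for P2ry6 (0.88). For P2rx4 the nearest entry carries a symbol in the form of a date, and the next was Srd5a3 (0.97). These are descriptions over libraries that share groups.

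The 250 bases before the annotated starts were searched on both strands for 5 motifs in RefSeq promoter windows of GRCm38.p6, which hold 8 of the 10 members in 11 windows. Adora2a and P2ry6 have no window there and were not searched. The motifs were the NF-kB consensus, TGANTCA (AP-1), TGACG (the CRE core, bound by cAMP response factors), ISRE (GAAA and GAAA with 2 bases of any kind between them) and GAGGAA (PU.1), and of all 32851 windows of this length 7.25%, 6.75%, 17.8%, 2.98% and 23.3% held them. A match to NF-kB was found for Ada only, to AP-1 for Adora3 and P2rx7, to the CRE core for Entpd1 and P2rx4, to PU.1 for Adora3 and Entpd1, and to ISRE for none. Adora2b, Nt5e and P2ry2 held none of these letters. Shown as examples are windows of 3 members: Adora2b with its interaction, Entpd1 (the second of its 2 starts) and P2rx7 (the first of its 2). P2rx7 met the stricter criteria in no comparison, and P2ry2, which was called, is not shown. The windows run 5′ to 3′ in lower case with the motif matches in capitals.
Adora2b, chr11:62248734-62248983, + strand: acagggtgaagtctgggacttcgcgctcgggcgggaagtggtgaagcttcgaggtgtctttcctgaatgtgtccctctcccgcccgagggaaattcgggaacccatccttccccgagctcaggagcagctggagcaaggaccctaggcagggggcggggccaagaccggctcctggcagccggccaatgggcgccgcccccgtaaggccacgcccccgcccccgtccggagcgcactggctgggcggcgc
Entpd1, chr19:40659520-40659769, + strand: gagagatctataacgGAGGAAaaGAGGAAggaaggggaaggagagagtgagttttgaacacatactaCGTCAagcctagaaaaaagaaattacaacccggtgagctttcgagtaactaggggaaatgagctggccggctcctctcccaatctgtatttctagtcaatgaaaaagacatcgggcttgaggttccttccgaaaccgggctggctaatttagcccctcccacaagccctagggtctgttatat
P2rx7, chr5:122643677-122643926, + strand: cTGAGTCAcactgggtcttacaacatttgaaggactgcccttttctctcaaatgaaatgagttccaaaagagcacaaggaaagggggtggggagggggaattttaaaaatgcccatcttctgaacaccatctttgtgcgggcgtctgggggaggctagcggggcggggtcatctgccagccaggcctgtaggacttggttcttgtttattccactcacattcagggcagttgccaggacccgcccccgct
In the window of Entpd1 the capitals mark PU.1 matches whose first bases lie at -235 and -227 from the start and a CRE core on the opposite strand at -183. In that of P2rx7 they mark an AP-1 match at -249. That of Adora2b, called higher in both genotype comparisons as headed, holds no capitals. A match is a run of letters and says nothing on binding in these cells.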

How the data were processed

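Per the labels and the methods, total RNA of BMDMs was made into NEBNext Ultra libraries and sequenced as paired ends. The authors removed adapter, poly-N and low-quality reads (the submitters' processing notes name Trimmomatic 0.36 and FastQC), used HISAT2 with mm10 for alignment, and counted reads with HTSeq. The deposited values are raw counts in 115140 transcript rows, without normalization. The HTSeq version and the strand setting are not given in the sources used here. Transcripts of a gene share reads, so 1 row per gene was kept, the one with the highest total. Of the 10 members, 8 share no exon base with another annotated gene.

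Tests used edgeR 4.0.16 under R 4.3.3, with TMM scaling after filterByExpr, a robust quasi-likelihood fit and Benjamini-Hochberg adjustment over all genes tested. Each comparison used its own 6 libraries and the interaction all 12. As in the study, a call needed an adjusted p below 0.01 together with a change of more than 2-fold. CPM values are TMM-scaled over the 12 libraries, and similarities use log2 CPM with a prior count of 2. Balances add 0.5 to each count. The counts are of reads without molecular identifiers, and the fits estimate the spread between the libraries of a group.

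The members and lists were chosen with earlier results of these data known. Named were all members, for each sublist and comparison the called gene with the largest change in each direction, the most similar gene of each member, and Tlr4, Lyz2 and Il1b as checks. Adora1 was named after its values were seen. Exact permutation of 3 against 3 libraries cannot go below p = 0.1 and was not run. Alternatives were DESeq2 1.42.0, limma 3.58.1 voom with sample weights, RLE factors, no filter, at least 10 counts in every library, transcripts summed per gene, 1 fit of all 12 libraries, a block for the replicate number, calls at an adjusted p below 0.05, and omission of single libraries. The fit without the 3 libraries highest in stromal markers was chosen after seeing the data. The fits were tested on simulated data. Sequences are from RefSeq (GRCm38.p6, the build of mm10).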

Additional observations from a re-analysis of the deposited data

Results flagged for a closer look

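Adora2b was singled out because the test of the difference between its changes with LPS in the 2 genotypes had an adjusted p below 0.05. The interaction was -3.88 on the log2 scale (SE 0.92, edgeR adjusted p = 0.0340), with the same value whether or not the 2 doubted headings are exchanged. It did not meet the stricter criteria used for calls, and 6.99% of all genes passed an adjusted p below 0.05. With single libraries left out the adjusted p ranged from 0.0155 to 0.0992 by edgeR, and without the 3 libraries highest in stromal markers it was 0.123, with a value of -3.22. As headed, all 3 LPS+ libraries lay above all 3 LPS- libraries in tlr4f/f and below them in tlr4f/f-lysM-cre. In the exchanged reading they lay above in both genotypes, and the gap was the smaller one in tlr4f/f-lysM-cre. Replicate 1 of LPS- tlr4f/f-lysM-cre held 259 CPM and the other two 86.0 and 78.1 CPM, and the summed stromal markers were 981, 188 and 1509 CPM in replicates 1, 2 and 3. The part of these markers in the interaction was not tested.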

How the results depend on the processing

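Numbers of called members changed as follows. In LPS+ against LPS- within tlr4f/f-lysM-cre, 3 members and 867 of all genes were called. With no filter beyond 1 count, the sum over transcript rows or all 12 libraries in a single fit, 1 member was called each time, beside 1024, 691 and 1147 genes. Without the 3 libraries highest in stromal markers 1 LPS- library is left. The log2 fold changes were then -2.22 for Adora2a, -2.09 for Adora2b, -1.57 for P2ry2, -1.55 for Adora3 and -1.18 for Entpd1. In LPS- tlr4f/f-lysM-cre against LPS- tlr4f/f (3 called), leaving out those libraries gave 0 members and 0 of 15838 genes by edgeR, with 4100 genes and 5 members at an unadjusted p below 0.05; 2 libraries of LPS- tlr4f/f and 1 of the other group are then left, and Adora2a, Adora2b and P2ry2 had log2 fold changes of 7.90, 4.64 and 2.56. In LPS+ tlr4f/f-lysM-cre against LPS+ tlr4f/f (3 called), all 12 libraries in a single fit gave 1 and an adjusted p below 0.05 alone gave 7. Of all genes these called 2053 and 8938, beside 3165 in the main fit. In LPS+ tlr4f/f-lysM-cre against LPS- tlr4f/f (1 called), DESeq2, limma voom and an adjusted p below 0.05 gave 3 each, and the single fit of 12 and the fit without the 3 libraries gave 2 each. Called genes numbered 2967, 2423, 5944, 2429 and 1919 in turn, beside 1952 in the main fit. For the interaction (0 called), DESeq2 gave 2, Adora2b and P2ry2, and an adjusted p below 0.05 gave 1. There 657 and 1104 genes passed, beside 157 in the main fit. Leaving out 1 library at a time gave 0 to 3, 1 to 3, 3 to 4 and 0 to 3 in these 4 comparisons in turn, and 0 for LPS+ against LPS- within tlr4f/f and for the interaction. The cause of these shifts was not tested.

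The replicate numbers were fitted as a block in an alternative. Same-numbered libraries of the 2 groups headed LPS- correlated at 0.47, 0.34 and 0.01 in their deviations from the group means. Between the groups headed LPS+ the values were 0.058, 0.072 and 0.19, and each LPS+ tlr4f/f library correlated best with its own number. The labels do not say whether a shared number marks a shared mouse or batch, and these values do not settle it. With the replicate block 0 members were called in LPS+ against LPS- within tlr4f/f-lysM-cre and 0 in LPS+ tlr4f/f-lysM-cre against LPS- tlr4f/f. Of all genes 212 and 921 were then called, beside 867 and 1952 without the block. In LPS- tlr4f/f-lysM-cre against LPS- tlr4f/f, Adora2a and P2ry2 stayed called and Adora2b did not (edgeR adjusted p = 0.0106). The edgeR adjusted p there fell for Entpd1 (0.0126, from 0.491), P2rx4 (0.0227, from 0.122), Ada (0.0428, from 0.130) and P2rx7 (0.0553, from 0.186), none of them called. An unadjusted p below 0.05 was held by 7 members with the block and 3 without, beside 7431 and 7011 genes. Not every library correlated best with its own number.

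For 56 single values for a member and a comparison, 939 alternative values were computed. Those at an adjusted p below 0.05 reuse the main fit, so their direction could not change. Omission of the 3 libraries highest in stromal markers removes none from LPS+ tlr4f/f-lysM-cre against LPS+ tlr4f/f, where the values repeat the main fit. Of all 939, 852 kept direction and side of the threshold, 42 lost a call, 23 gained one and 22 changed sign. None of those that changed sign passed the threshold. Entpd1 in LPS+ against LPS- within tlr4f/f-lysM-cre was 0.60 with limma voom and 0.14 with the block, and Adora3 in the interaction 0.49 with limma voom. Without the 3 libraries highest in stromal markers, P2ry2 in LPS+ against LPS- within tlr4f/f was 0.052, P2ry6 in LPS- tlr4f/f-lysM-cre against LPS- tlr4f/f 0.074 and P2ry6 in the interaction -0.13. With 1 library left out at a time, log2 fold changes ranged from -0.38 to 0.13 for P2ry2 in LPS+ against LPS- within tlr4f/f, from -0.68 to 1.63 for Nt5e and -0.47 to 0.077 for P2ry6 in LPS- tlr4f/f-lysM-cre against LPS- tlr4f/f, from -0.34 to 0.058 for P2rx7 in LPS+ tlr4f/f-lysM-cre against LPS- tlr4f/f, from -1.001 to 0.11 for Entpd1 and -0.53 to 0.013 for P2ry6 in LPS+ against LPS- within tlr4f/f-lysM-cre, and from -0.015 to 0.60 for Adora3 in LPS+ tlr4f/f-lysM-cre against LPS+ tlr4f/f. For the interaction they ranged from -0.94 to 0.26 for Adora3, from -0.88 to 2.17 for Nt5e, from -0.052 to 1.06 for Ada and from -0.15 to 0.39 for P2ry6. Depth limits Nt5e most, with at most 66 counts in a library, and then Adora3 and Ada.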
